A study of Mus musculus with 24 samples.

Results

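Cortical RNA of mice carrying the R47H form of a TREM2 construct was compared with that of mice carrying the WT form, in animals given only corn oil, the vehicle, and no tamoxifen. The members are 12 of the 24 libraries of the series, 1 library per mouse. The 6 mice of the group R47H_control had the genotype TREM2-R47H+/+; Cx3cr1CreER/+ and the 6 of WT_control had TREM2-WT+/+; Cx3cr1CreER/+, all on the background strain C57BL/6. Both groups therefore share the Cx3cr1CreER allele, which drives a tamoxifen-dependent Cre recombinase from a promoter of microglia and related macrophages, and neither group had received the drug that activates it. Per the labels, tamoxifen is what turns on TREM2 in the microglia of these mice, and no source used here names the promoter of the construct. The other 12 mice, 6 of each genotype, had received tamoxifen and form the groups R47H_induced and WT_induced. Per the series text each group held 3 males and 3 females. No source used here gives age, litter, cage or founder, so the genotype cannot be told apart from the line the mice were bred from. The whole gene table was used: 43346 genes, of which 19678 had enough counts to be tested.

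TREM2 is a receptor on microglia, the resident macrophages of the brain, that binds lipids and lipoproteins such as APOE and signals through the adaptor TYROBP (DAP12) to the kinase SYK. Its activity is needed for microglia to move from a resting state, marked by genes such as P2ry12 and Tmem119, to a phagocytic, lipid-handling state marked by Apoe, Itgax and Cst7. The R47H substitution in the ligand-binding domain weakens ligand binding and raises the risk of Alzheimer's disease in people who carry it. A comparison within vehicle-treated mice asks how the genotypes differ without the inducing drug.

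Total counts ran from 33742812 to 43961714 in WT_control and from 31025034 to 39902640 in R47H_control (two-sided exact permutation p = 0.0952 for the difference of means). The 30 pairs of libraries within these groups all differed beyond counting error (chi-square divided by its degrees of freedom, 4.80 to 67.8), and each library counts once in n. Counts in Yam1, AY036118 and Lars2, genes that collect ribosomal RNA sequence, made up an rRNA-like share of 15.9% ± 3.18 in WT_control and 20.3% ± 2.73 in R47H_control (SD, n = 6, exact permutation p = 0.0303). That share ran from 11.5% to 20.1% in WT_control and from 17.1% to 24.4% in R47H_control, so the groups overlapped. The difference of means was 4.43 percentage points, and on leaving out single libraries it ran from 3.54 to 5.26, with an exact permutation p above 0.05 without R47H_control replicate 1 or 6 or WT_control replicate 1, 3 or 6. Of 93 called genes followed through the alternatives, 29 lost their call with this share in the fit and 51 with the striatal marker list as a covariate. In a fit of the 12 corn oil libraries with the share, 40 of the 82 tested there lost it. The striatal list itself differs between the groups, and with it as a covariate 262 genes were called over all tested, against 1129 without it. A call lost with that list therefore does not separate the list from the genotype. Cortical excitatory neuron markers summed to 5132 to 5789 CPM (counts scaled to library size) in WT_control and to 4747 to 5227 in R47H_control. Markers of striatal medium spiny neurons, cells of the tissue below the cortex, were also present, at 1978 to 2249 CPM in WT_control and 1786 to 1971 in R47H_control.

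Mouse Trem2 (chromosome 17, 48346401 to 48354147, mm10) was measured at 5.93, 6.35 and 6.96 CPM (lowest, median and highest) in WT_control and at 6.62, 8.07 and 9.08 CPM in R47H_control. The R47H libraries were on average higher, but their 2 lowest lay within the range of the WT libraries. The log2 difference, R47H minus WT, was 0.30 (SE 0.10, adjusted p = 0.0726), short of the threshold of 0.05 used throughout for a call, and the exact permutation test of this gene alone gave p = 0.0108. In a fit of the 12 corn oil libraries alone the adjusted p was 0.0302, and without WT_induced replicate 6, a library outside the comparison that enters the shared estimate of the spread, it was 0.017. Leaving out R47H_control replicate 2 brought it to 0.0473. With the rRNA-like share in the fit Trem2 was not called, over 24 libraries or over the 12. In the tamoxifen-treated mice the log2 difference was 0.00 (SE 0.10). The sources used here do not say whether the construct is of mouse or human sequence, so this gene does not check the labels.

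Across all genes, 1129 were called, 5.74% of those tested, 530 higher (2.69%) and 599 lower (3.04%) in R47H_control. At an unadjusted p below 0.05 there were 4037 genes, called genes included. Differences were mostly small: the median log2 difference was 0.25 among genes called higher and -0.23 among genes called lower, and 102 genes differed at least 2-fold, 51 in each direction. Of the 2-fold calls, 73 had a mean below 1 CPM and 61 were protein coding. The share called increased with level, from 2.99% of genes below 1 CPM to 4.67% at 1 to 10, 6.70% at 10 to 100 and 10.3% above 100 CPM, while the median absolute log2 difference of called genes went from 1.15 to 0.15 over the same classes. Genes with more reads were thus called at smaller differences. By gene type, 6.28% of protein-coding genes, 4.13% of pseudogenes and 3.63% of long non-coding genes were called. For 626 genes (3.18%) the 6 values of one group did not overlap the 6 of the other, and 499 of these were called. With libraries scaled by their totals instead of TMM, 191 genes were called higher and 1142 lower, so that 14.3% of calls were higher against 46.9% in the main fit, and the median of all genes moved from -0.00 to -0.06 on the log2 scale. With the rRNA-like share in the fit 200 and 251 genes were called.

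The tamoxifen-treated mice are separate animals and give a second measurement of the same genotype contrast, in which 1142 genes (5.80%) were called. Of the 1129 genes called without tamoxifen, 1053 (93.3%) differed in the same direction there and 76 in the opposite one. No share of equal sign was taken over all tested genes, so this share and that of the 2-fold genes below have no background beside them. In both treatments 484 genes (2.46% of all tested) were called in the same direction, which is 42.9% of the calls in corn oil mice and 42.4% of those in tamoxifen-treated mice, and no gene was called in opposite directions. The median log2 difference of the called genes was smaller in the second set of mice, 0.16 for those called higher and -0.16 for those called lower. These genes were chosen by passing in corn oil mice, which by itself tends to make their differences there larger. The medians therefore do not compare the size of the contrast between treatments. The difference between the 2 genotype contrasts was tested for each gene and no gene passed in edgeR's quasi-likelihood test, with a lowest adjusted p of 0.303. At an unadjusted p below 0.05 there were 1562 genes, 220 of them among the 1129, and leaving out WT_control replicate 2 let 1 gene pass. Of the 102 genes at 2-fold or more, 98 had the same sign in the tamoxifen-treated mice and 55 were called in both treatments. The plot of both contrasts shows all 1129 called genes.

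**Figure D1:**
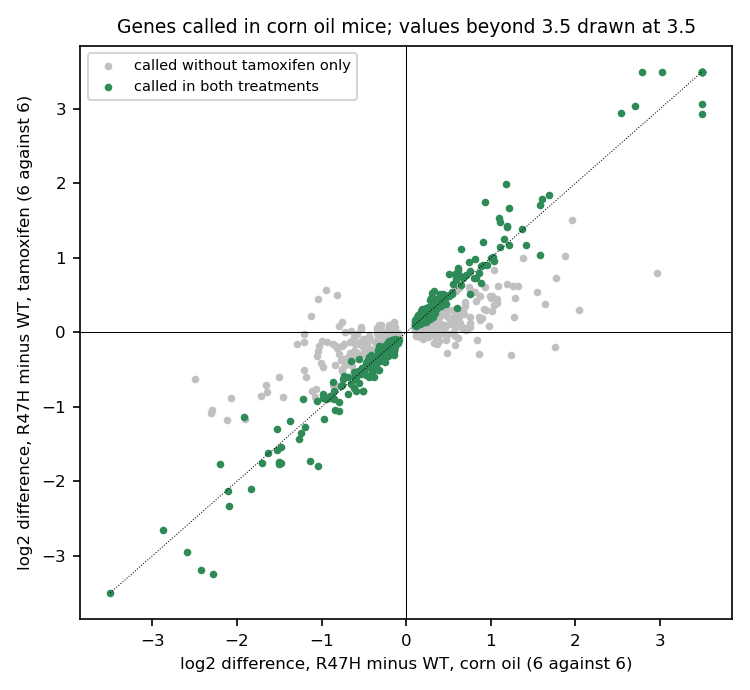
Log2 difference of R47H from WT in corn oil mice (x axis) against the same difference in tamoxifen-treated mice (y axis) for the 1129 genes called in corn oil mice, each point 1 gene, with the dotted line at equal values and the most extreme values drawn at the edge. Green points are the 484 genes called in both treatments and grey points those called in corn oil mice alone, and 1053 of the points lie in the quadrants of equal sign.

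The lowest p-values belonged to a small set of genes whose libraries separated fully by genotype. The pseudogene RP23-474A1.1 (chromosome 1, 177808550 to 177962233) had 15 counts in all WT_control libraries together and 1247 in R47H_control. Its levels were 0, 0.062 and 0.109 CPM (lowest, median, highest) in WT_control and 3.22, 5.96 and 8.57 CPM in R47H_control, a log2 difference of 6.52 (SE 0.43, adjusted p = 9.24e-09). Gm16432, which lies next to it from 177983423 to 178172704, was at 2.77, 3.33 and 3.87 CPM against 7.32, 9.88 and 13.4 CPM, a log2 difference of 1.58 (SE 0.16, adjusted p = 3.21e-06). For both genes R47H_control replicates 1, 4 and 5 sat at the lower level, near 3 to 4 CPM and 7 to 8 CPM, and replicates 2, 3 and 6 at the higher one, and every R47H library lay above every WT library. A newer annotation (GENCODE vM21) names them Catspere1 and Catspere2, a sperm ion channel subunit in copies, so reads could be shared between them.

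Hmga1 (chromosome 17, 27556620 to 27563674), which encodes an architectural chromatin protein that binds AT-rich DNA, was at 5.55, 5.79 and 6.18 CPM in WT_control and at 8.80, 11.9 and 13.6 CPM in R47H_control. The log2 difference was 0.999 (SE 0.09, adjusted p = 3.01e-08), and it was 1.004 in tamoxifen-treated mice. A near copy of this gene exists in the mouse genome, and reads could be shared between copies. Nearby Nudt3, a phosphatase that acts on inositol pyrophosphates, was lower in all 6 R47H libraries, 180 to 199 CPM against 225 to 236 CPM (log2 difference -0.30, SE 0.03, adjusted p = 5.97e-07). Scg5, the 7B2 chaperone of a prohormone convertase in secretory granules, was higher at 139, 144 and 149 CPM against 105, 115 and 125 CPM (log2 difference 0.33, SE 0.03, adjusted p = 1.25e-06). Extl2, an enzyme of glycosaminoglycan synthesis, was lower at 65.0 to 66.8 CPM against 75.9 to 80.8 CPM. Bex2, a small X-linked neuronal protein, was lower at 104 ± 3.83 CPM against 125 ± 4.18 CPM (SD, n = 6, adjusted p = 2.39e-06). Dusp14, a phosphatase that dampens MAP kinase signalling, was lower at 29.8 ± 1.97 CPM against 40.4 ± 2.85 CPM (adjusted p = 3.21e-06), and Ints7, a subunit of the Integrator complex that processes small nuclear RNA, at 25.7 ± 2.89 CPM against 39.4 ± 2.12 CPM (adjusted p = 9.99e-06). All 7 of these genes were called in the same direction in tamoxifen-treated mice, and none lost its call when any 1 of the 12 libraries was left out.

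A nearby pair on chromosome 17 fell together. Kat2b (53566861 to 53672720), a histone acetyltransferase also known as PCAF, was at 37.1, 45.3 and 50.5 CPM in WT_control and at 23.5, 24.4 and 25.4 CPM in R47H_control (log2 difference -0.86, SE 0.10, adjusted p = 1.73e-05). Rab5a (53479234 to 53507671), the small GTPase of early endosomes, was at 116, 139 and 161 CPM against 76.3, 80.7 and 86.1 CPM (log2 difference -0.78, SE 0.11, adjusted p = 0.000199). In both genes WT_control replicates 3 and 5 were the lowest of their group and still above every R47H library, and the WT libraries spread over a wider range than the R47H ones.

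**Figure D2:**
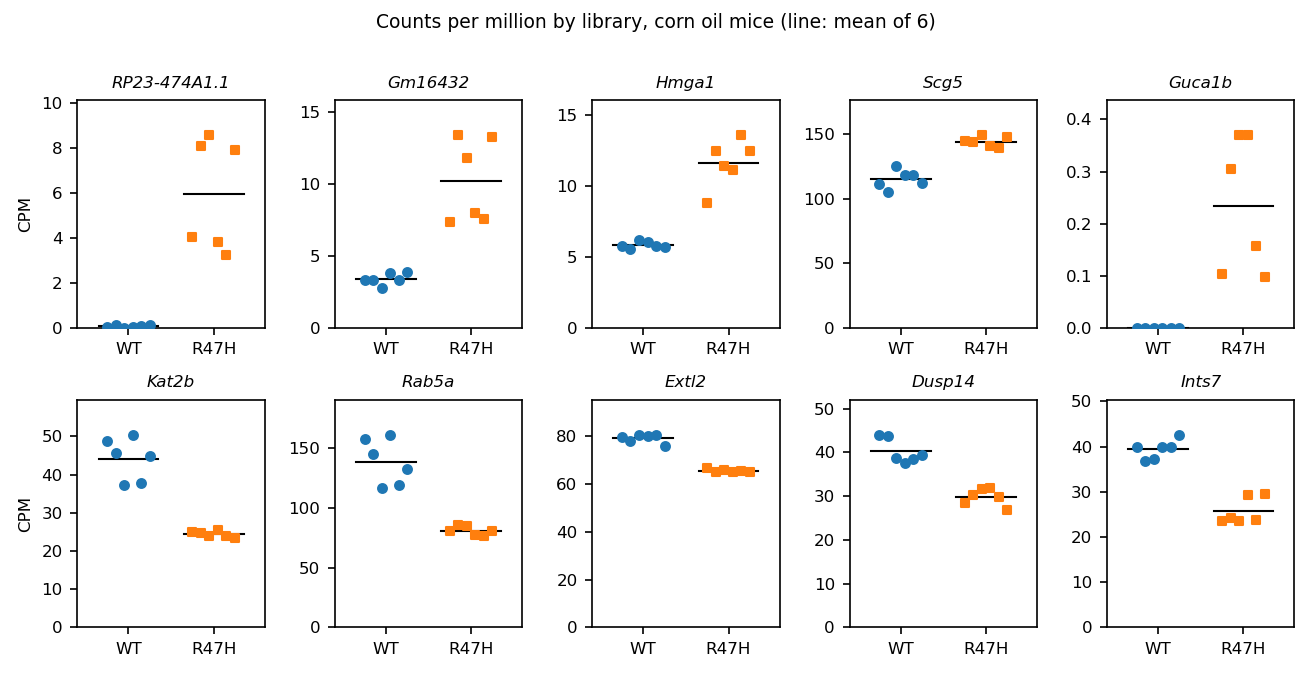
CPM of 10 genes in the 6 WT (blue circles) and 6 R47H (orange squares) libraries of corn oil mice, each point 1 library, in replicate order from left to right, the line the mean of the group, each axis starting at 0. No WT library overlaps an R47H library in any of the 10 genes, and RP23-474A1.1 and Gm16432 show 2 levels among the R47H libraries.

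The 10 largest rises with a gene symbol were of genes barely transcribed in cortex, only Mamdc2 having a WT mean above 1 CPM. Guca1b (chromosome 17, 47385393 to 47392967), a calcium sensor of photoreceptors, had no count in WT_control and 50 in R47H_control, present in all 6 libraries at 0.0966 to 0.37 CPM. Against a floor of 3 counts over the WT group this is at least 19.5-fold higher (adjusted p = 5.77e-05). Klk1b22, a kallikrein of a family with near-identical copies, had 1 count against 230, a ratio of 269 with an exact 95% interval of 47.8 to 10700, which like the floor covers counting error only, and R47H_control replicate 4 was at 0.0308 CPM while the other 5 lay between 0.419 and 2.62. Gpr15, a chemoattractant receptor of lymphocytes, was at 0.0816, 0.0928 and 0.135 CPM against 0.388, 0.794 and 0.89 CPM (log2 difference 2.71, SE 0.37, adjusted p = 5.21e-05). Mamdc2 was at 0.664 to 1.78 CPM against 2.38 to 4.42 CPM (log2 difference 1.57, SE 0.20, adjusted p = 4.23e-05), and Meox1, a homeobox factor of mesoderm, at 0.346 ± 0.11 CPM against 1.01 ± 0.34 CPM, with R47H_control replicate 6 inside the WT range (log2 difference 1.54, SE 0.28, adjusted p = 0.00101). Cyp4a12b, which shares sequence with other Cyp4a genes, also rose (log2 difference 1.69, SE 0.37, adjusted p = 0.00598), but not with the rRNA-like share in the fit (adjusted p = 0.0699). The remaining 4 were lost when single libraries were left out: Igsf23 (7 of 12 omissions, adjusted p up to 0.0808), Fam167b (8 of 12, up to 0.112), Nlrc4 (7 of 12, up to 0.107) and Treml2 (9 of 12, up to 0.105). None of these 4 passed with the rRNA-like share in the fit (adjusted p = 0.314, 0.35, 0.0723 and 0.314).

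Of the 10 largest falls, 9 lay on chromosome 17. Prss41, a serine protease, went from 2.45 ± 0.84 to 0.44 ± 0.74 CPM (log2 difference -2.59, SE 0.67, adjusted p = 0.025), with R47H_control replicate 1 at 1.93 CPM inside the WT range of 1.41 to 3.36 CPM and the other 5 at 0.0494 to 0.258 CPM. This call was lost without R47H_control replicate 2, 3, 5 or 6 (adjusted p = 0.0577, 0.0525, 0.0554 and 0.0563). Ccr6, a chemokine receptor of lymphocytes, was at 0.528 to 0.982 CPM against 0.0831 to 0.518 CPM (log2 difference -2.11, SE 0.41, adjusted p = 0.00227). H2-Bl, a class I histocompatibility gene with close relatives, was at 2.31 to 2.95 CPM against 0.493 to 1.39 CPM (log2 difference -1.70, SE 0.23, adjusted p = 6.14e-05). Sstr5, a somatostatin receptor, was at 1.12 to 2.22 CPM against 0.37 to 0.967 CPM (log2 difference -1.64, SE 0.29, adjusted p = 0.00122). Tagap, Fpr2, Pdia2, Npw and Dynlt1b made up the rest on this chromosome, with log2 differences between -2.20 and -1.53, and Olfr31 on chromosome 14 had -2.12 (SE 0.41, adjusted p = 0.00185). The widest gaps between the groups among genes outside these sets were found in 2 non-coding transcripts and a pseudogene. RP23-399N18.3 (chromosome 1, 190992692 to 190994677) was at 0 to 0.0544 CPM against 0.278 to 0.691 CPM (adjusted p = 4.11e-05). Gm26858, whose exons lie wholly within exons of Wiz on the opposite strand so that unstranded reads cannot be assigned, was at 6.43 to 8.35 CPM against 1.80 to 4.22 CPM (adjusted p = 5.77e-05). Gm10499 was at 0.54 to 0.982 CPM against 0 to 0.276 CPM (adjusted p = 0.000454).

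A few genes of the ATF4 response fell in R47H mice. ATF4 is a transcription factor whose translation rises when amino acids are short or the endoplasmic reticulum is stressed, and it induces genes of amino acid supply and redox balance. Of 20 listed members tested, 3 were called lower and none higher, and the median log2 difference of the list was -0.07, beside -0.00 over all genes and a called share of 5.74%. The 3 are the factor itself and 2 of its known targets. Their promoter windows, 250 bases before to 50 after the transcription start in RefSeq (GRCm38.p6), are shown because they hold or lack the binding element of the factor. Capitals mark matches on either strand to TGATGNAAN, the composite element bound by ATF4 with C/EBP proteins, a motif chosen with the values known. Chac1 at chr2:119350992-119351291 on the plus strand, Asns at chr6:7693160-7693459 on the minus strand and Atf4 at chr15:80254934-80255233 on the plus strand are printed 5′ to 3′ in the direction of transcription.
Chac1: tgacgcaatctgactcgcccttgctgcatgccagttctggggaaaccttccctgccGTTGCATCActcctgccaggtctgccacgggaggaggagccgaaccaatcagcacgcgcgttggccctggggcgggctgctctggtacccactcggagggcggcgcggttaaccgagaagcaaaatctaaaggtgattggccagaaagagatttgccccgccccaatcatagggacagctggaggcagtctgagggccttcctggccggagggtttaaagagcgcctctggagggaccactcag
Asns: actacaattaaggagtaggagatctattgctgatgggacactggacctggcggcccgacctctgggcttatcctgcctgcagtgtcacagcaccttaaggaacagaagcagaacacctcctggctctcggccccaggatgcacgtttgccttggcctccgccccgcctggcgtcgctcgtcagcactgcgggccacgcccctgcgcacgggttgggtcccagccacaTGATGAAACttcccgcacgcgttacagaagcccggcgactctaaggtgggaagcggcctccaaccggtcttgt
Atf4: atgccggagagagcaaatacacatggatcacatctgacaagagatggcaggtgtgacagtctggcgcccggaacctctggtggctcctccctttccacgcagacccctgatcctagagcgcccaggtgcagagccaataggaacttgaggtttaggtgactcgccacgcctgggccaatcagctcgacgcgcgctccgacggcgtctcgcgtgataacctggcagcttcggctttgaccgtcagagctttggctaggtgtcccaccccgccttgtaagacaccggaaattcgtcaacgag
The Chac1 window holds 1 match, on the reverse strand, with its first base 194 bases before the start, and the Asns window 1, on the forward strand, 23 bases before it. The Atf4 window holds none. The motif occurs in 3.95% of all 32851 promoter windows of this length, in 2.34% of the windows of tested genes, in 3.02% of those of genes called lower and in 2.30% of those of genes called higher. It is in 6 of the 21 windows of the listed ATF4 genes (28.6%). A match describes letters in the window and not a bound site.

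Chac1, which breaks down glutathione, was at 5.54, 6.35 and 6.87 CPM in WT_control and at 3.88, 4.04 and 4.89 CPM in R47H_control, with no overlap (log2 difference -0.59, SE 0.09, adjusted p = 0.000179). Asns, which makes asparagine, was at 80.0, 83.8 and 88.2 CPM against 68.8, 71.9 and 73.4 CPM, also with no overlap (log2 difference -0.24, SE 0.03, adjusted p = 7.81e-05). Atf4 was at 74.0, 84.8 and 92.3 CPM against 61.9, 65.7 and 73.1 CPM, where the highest R47H library lay just below the lowest WT library (log2 difference -0.32, SE 0.05, adjusted p = 0.000326). All 3 were called lower in tamoxifen-treated mice too, with log2 differences of -0.60, -0.17 and -0.19. They passed with the rRNA-like share in the 24-library fit and without any 1 library. In a fit of the 12 corn oil libraries with that share, Atf4 did not pass (adjusted p = 0.107). Slc7a11, the cystine transporter and a listed member, differed the other way, at 59.2 to 66.7 CPM against 70.9 to 84.4 CPM with no overlap. Its log2 difference of 0.25 (SE 0.09, adjusted p = 0.09) did not pass over 24 libraries, and it was called higher by DESeq2 (0.0368), in the fit of the 12 corn oil libraries (0.00153) and in that fit with the rRNA-like share (0.0161). Gars, a glycyl-tRNA synthetase outside the list and in a region of chromosome 6 described further on, was at 106 ± 3.80 CPM against 94.4 ± 1.90 CPM (log2 difference -0.16, SE 0.03, adjusted p = 0.000581).

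Activity-dependent genes lay lower in R47H mice, most of them without passing the test. Of 23 immediate early and activity-regulated genes, 22 had a negative log2 difference, with a median of -0.38, and 2 were called lower, beside 3.04% called lower over all genes. Over all tested genes 49.5% had a positive log2 difference. The summed level of the list overlapped between the groups, at 835 to 1423 CPM in WT_control and 698 to 1274 CPM in R47H_control. Bdnf, a neurotrophin released on activity, was at 17.4, 21.2 and 24.6 CPM against 12.9, 15.1 and 17.3 CPM, just without overlap (log2 difference -0.46, SE 0.09, adjusted p = 0.00169), and it had the same difference, -0.46, in tamoxifen-treated mice. Ptgs2, the inducible cyclooxygenase, was at 8.84 to 13.1 CPM against 7.03 to 9.78 CPM, with overlap (log2 difference -0.43, SE 0.12, adjusted p = 0.0389), and its call was lost on 8 of 12 omissions of a library (adjusted p up to 0.0941). Neither passed in the 12-library fit with the rRNA-like share (adjusted p = 0.159 and 0.17). In the tamoxifen-treated mice the median of the list was -0.01.

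**Figure D3:**
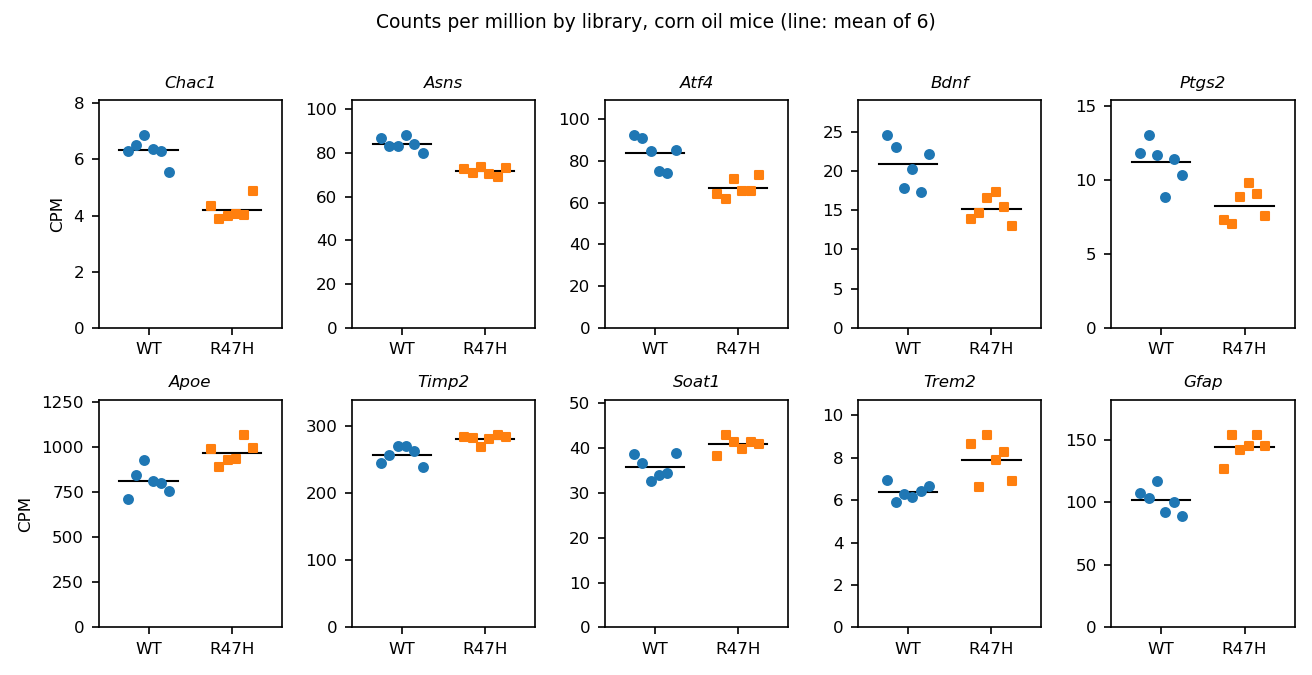
CPM of 10 genes named in the text on ATF4, activity and glia, in the 6 WT (blue circles) and 6 R47H (orange squares) libraries of corn oil mice, each point 1 library, the line the mean of the group, each axis starting at 0. Chac1, Asns, Atf4, Bdnf and Gfap separate fully by genotype, and the Trem2 values overlap.

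The calls in the striatal, excitatory and presynaptic lists were all in the lower direction, in which 3.04% of all genes were called. Among 16 tested striatal medium spiny neuron genes, 7 were called lower (Scn4b, Pde10a, Rarb, Rgs9, Penk and Drd2 among them), none higher, and all 16 had a negative log2 difference, with a median of -0.16. The groups' summed levels of this list, given above, did not overlap, and since the tissue is bulk, fewer cells of a type and less RNA per cell cannot be told apart here or in any other list. Scn4b, a sodium channel beta subunit, was at 315, 334 and 370 CPM against 222, 273 and 298 CPM (log2 difference -0.33, SE 0.07, adjusted p = 0.0027). Pde10a, a phosphodiesterase of striatal neurons, was at 282 to 340 CPM against 267 to 297 CPM (log2 difference -0.18, SE 0.04, adjusted p = 0.00577), and Rgs9, a regulator of dopamine receptor signalling, at 73.3 to 94.9 CPM against 57.1 to 71.0 CPM (log2 difference -0.28, SE 0.07, adjusted p = 0.0133). With the rRNA-like share in the fit, 2 of the 7 were called, Scn4b and Pde10a, and in the 12-library fit with that share none was. Both lie in regions with a high share of calls. Scn4b is at 40 to 50 Mb of chromosome 9, where 16 of 107 tested genes were called. Pde10a is at 0 to 10 Mb of chromosome 17, where 17 of 50 were called, a region described further on. In the tamoxifen-treated mice 6 of the 16 were called lower.

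Of 18 excitatory cortical neuron genes, 4 were called lower and none higher (median -0.07), beside 3.04% called lower over all genes. Lamp5, a marker of upper-layer neurons, was at 120.4, 128.5 and 131.5 CPM against 100.8, 105.7 and 116.5 CPM with no overlap (log2 difference -0.25, SE 0.04, adjusted p = 9.52e-05). Nrgn, a calmodulin-binding protein of dendritic spines, was at 756 to 866 CPM against 651 to 748 CPM (log2 difference -0.24, SE 0.04, adjusted p = 0.000696), and Pcp4, another calmodulin regulator, at 185 to 201 CPM against 164 to 192 CPM (log2 difference -0.17, SE 0.04, adjusted p = 0.0134). Cux2 also passed (adjusted p = 0.0494) and was lost on 8 of 12 omissions of a library, in the 12-library fit (0.0809) and with the rRNA-like share (0.0825). With the striatal list as a covariate Lamp5 alone of the 4 passed, and Nrgn, Pcp4 and Cux2 did not (adjusted p = 0.172, 0.277 and 0.62). That list itself differs between the groups, so these losses do not separate it from the genotype. Of 19 glutamate receptor and scaffold genes, 4 were called lower (Shank2, Gria3, Grin1 and Dlg4, with log2 differences between -0.18 and -0.12) and 1 higher. Shank2, a scaffold of excitatory synapses, had -0.18 (SE 0.04, adjusted p = 0.015, and 0.051 in the 12-library fit), and Gria3, Grin1 and Dlg4 were each lost on leaving out at least 1 library (2, 6 and 8 of 12). None of the 19 was called with the rRNA-like share in the fit (adjusted p = 0.144, 0.205, 0.314 and 0.335 for Shank2, Gria3, Grin1 and Dlg4). Unc13a, which primes synaptic vesicles, was the 1 called gene of 18 presynaptic ones, at 382 to 423 CPM against 346 to 380 CPM (log2 difference -0.19, SE 0.04, adjusted p = 0.00162, and 0.0524 with the rRNA-like share). None of 18 inhibitory neuron genes and none of 12 GABA-A receptor genes passed in edgeR, where 3 and 2 had an unadjusted p below 0.05, and DESeq2 called 1 in each list.

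Microglial lists showed few calls in the main fit. None of 16 TREM2 signalling partners, 20 homeostatic microglia genes or 25 pan-microglial genes passed, beside a called share of 5.74% over all genes. At an unadjusted p below 0.05 edgeR gave 3, 4 and 1 of them, and DESeq2 called 0, 1 and 0. Among the homeostatic genes 16 of 20 had a positive log2 difference, with a median of 0.12. P2ry12, the ADP receptor of resting microglia, was at 27.3, 30.7 and 32.2 CPM against 33.0, 34.5 and 37.3 CPM, with no overlap (log2 difference 0.20, SE 0.06, adjusted p = 0.0513). It was called in the fit of the 12 corn oil libraries (adjusted p = 0.00962), without WT_induced replicate 6 (0.0398) and without WT_control replicate 3 (0.0462). Tmem119, a microglial membrane protein, was at 13.1 to 15.8 CPM against 14.2 to 18.2 CPM (log2 difference 0.22, SE 0.11, adjusted p = 0.25), and was called in the fit of 12 (0.0429). With the rRNA-like share in the fit none of the 20 homeostatic genes was called, over 24 libraries or over the 12. Cx3cr1, the fractalkine receptor whose locus carries the Cre allele in both groups, was at 18.4 ± 1.06 CPM against 20.3 ± 0.72 CPM (log2 difference 0.14, SE 0.07, adjusted p = 0.281). Tyrobp, the TREM2 adaptor, had a log2 difference of 0.14 (SE 0.16), Aif1, the IBA1 protein, 0.11 (SE 0.19), and Csf1r, the receptor microglia need to survive, 0.01 (SE 0.06). Itgax, an integrin of activated microglia, was at 0.158 ± 0.10 CPM against 0.265 ± 0.07 CPM (adjusted p = 0.664). Cst7 and Clec7a were below the filter on low counts, Cst7 with 55 counts in WT_control and 46 in R47H_control.

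Within the disease-associated microglia list 2 of 20 genes were called higher and none lower, beside 2.69% and 3.04% over all genes. DESeq2 also called 2 of them lower. These were Lpl, lipoprotein lipase, at 32.1 to 35.2 CPM against 16.9 to 33.7 CPM (adjusted p = 0.0781 in edgeR and 0.0399 in DESeq2), and Ctsb, a lysosomal protease, at 455 to 481 CPM against 427 to 453 CPM (0.0975 and 0.046). Both were also called lower with library totals as the scaling (0.0494 and 0.0287), and Lpl in edgeR without R47H_control replicate 4 (0.0264). Apoe, the lipoprotein made by astrocytes and activated microglia, was at 715, 808 and 932 CPM against 892, 965 and 1072 CPM, where the 2 lowest R47H libraries lay below the highest WT library (log2 difference 0.26, SE 0.06, adjusted p = 0.0126). It passed without any 1 library, but not with the rRNA-like share in the fit (adjusted p = 0.132), and in tamoxifen-treated mice its log2 difference was 0.08 (SE 0.06, adjusted p = 0.522). Timp2, an inhibitor of matrix metalloproteinases, had 0.13 (SE 0.04, adjusted p = 0.0287), lost on 5 of 12 omissions (adjusted p up to 0.0805) and with the rRNA-like share (0.194). Of 17 lipid transport genes, Apoe and Soat1 were called. Soat1, which esterifies cholesterol for storage, was at 32.7 to 38.8 CPM against 38.2 to 43.0 CPM (log2 difference 0.19, SE 0.05, adjusted p = 0.0145, and 0.089 with the rRNA-like share). Ctsa, a lysosomal carboxypeptidase whose exons overlap neighbours on the other strand, was the 1 called member of 23 lysosomal genes, at 59.8 to 66.0 CPM against 66.2 to 76.9 CPM (log2 difference 0.20, SE 0.05, adjusted p = 0.0136). That is 4.35% of the list, beside 5.74% over all genes, and DESeq2 called 1 of the 23 higher and 2 lower. Scaled by library totals, Timp2, Soat1 and Ctsa were not called (adjusted p = 0.326, 0.159 and 0.148).

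A few antigen presentation genes, mostly of class II, and reactive astrocyte genes gave different calls in the 2 fits. Of 18 antigen presentation genes none was called over 24 libraries, and 9 had a positive log2 difference, with a median of 0.02. The 12-library fit called 5 of the 18 higher and none lower, beside 518 of 18939 genes called higher there, and the list median was again 0.02. H2-Aa was at 0.979, 1.30 and 1.52 CPM in WT_control and at 2.05, 2.72 and 3.85 CPM in R47H_control, with no overlap. H2-Eb1 was at 1.09, 1.36 and 1.96 CPM against 2.10, 2.92 and 3.41 CPM, and H2-Ab1 at 0.807, 1.15 and 1.40 CPM against 1.43, 1.91 and 2.51 CPM, again with no overlap. All 3 encode chains of the molecule that presents peptides to CD4 T cells. Over 24 libraries their log2 differences of 1.12 (SE 0.88), 0.89 (SE 0.87) and 0.85 (SE 0.89) did not pass (adjusted p = 0.517, 0.617 and 0.648). In the fit of the 12 corn oil libraries they did (adjusted p = 0.000319, 0.00213 and 0.00393), as did Cd74, their invariant chain (3.58 ± 0.82 against 6.46 ± 1.23 CPM, 0.00812) and H2-T23, a class I gene (5.07 ± 0.71 against 8.09 ± 1.69 CPM, 0.00812). Without WT_induced replicate 6, H2-Aa, H2-Eb1 and H2-T23 were called (0.00977, 0.0199 and 0.0341). With the rRNA-like share in the 24-library fit the log2 difference of H2-Aa was -0.28, of H2-Eb1 -0.46 and of H2-Ab1 -0.61. These negative values were not seen in the 12-library fit with that share, where 4 of the 18 genes were called higher. They were H2-Aa (log2 difference 1.22, adjusted p = 0.00506), H2-Eb1 (adjusted p = 0.00929), H2-Ab1 (0.0462) and H2-T23 (0.0014). Cd74 was not called there. In tamoxifen-treated mice the log2 difference of H2-Aa was -2.60 (SE 0.79, adjusted p = 0.0582), opposite in sign to that in corn oil mice, and the difference between the contrasts had an unadjusted p of 0.00494 that did not pass adjustment. The tamoxifen contrast includes WT_induced replicate 6. Without that library the corn oil difference of H2-Aa was 1.13, and its adjusted p was 0.00977 where it had been 0.517. Whether the opposite sign rests on that library was not tested.

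Gfap, the intermediate filament of reactive astrocytes, was at 89.0, 102 and 117 CPM against 126, 145 and 154 CPM, with no overlap (log2 difference 0.51, SE 0.18, adjusted p = 0.107), and was called in the 12-library fit (adjusted p = 0.00064) and without WT_induced replicate 6 (0.000403). Cd44, a hyaluronan receptor that reactive astrocytes carry, was at 2.16 to 2.80 CPM against 2.97 to 4.73 CPM (log2 difference 0.71, SE 0.23, adjusted p = 0.0656, and 0.00105 in the 12-library fit). Over the 24 libraries limma-voom called both Gfap and Cd44 (adjusted p = 0.0484 and 0.037), and DESeq2 called Cd44 (0.0197). Both were called in the 12-library fit with the rRNA-like share (0.0111 and 0.0249), and neither with that share over 24 libraries. No other reactive astrocyte gene passed in edgeR in either fit, of 19 tested over 24 libraries and 17 over the 12. Cyba, a subunit of the phagocyte oxidase, was at 2.13 to 2.40 CPM against 2.61 to 3.11 CPM (adjusted p = 0.269, and 0.0112 in the 12-library fit), and Pf4, a chemokine of border macrophages, at 0.163 to 0.402 CPM against 0.414 to 0.592 CPM (adjusted p = 0.0867 and 0.0465).

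None of 23 type I interferon response genes passed over 24 libraries, with 1 at an unadjusted p below 0.05 in edgeR and 0 called by DESeq2. Of the 23, 4 had a positive log2 difference, and the median was -0.24. Irf7, the factor that amplifies the response, was at 1.17 to 2.13 CPM against 0.543 to 1.44 CPM (log2 difference -0.70, SE 0.53, adjusted p = 0.498) and was called lower in the 12-library fit (0.0491). Of 20 complement genes 1 was called (5%, near the 5.74% over all genes), and 12 had a positive log2 difference, with a median of 0.05. The called gene was C4a on chromosome 17, at 1.70 ± 0.43 CPM in WT_control and lower at 1.17 ± 0.18 CPM in R47H_control (log2 difference -0.54, SE 0.15, adjusted p = 0.027). C4a was lost on 4 of 12 omissions of a library, in the 12-library fit (0.0703) and with the rRNA-like share (0.199). Its close copy C4b makes its reads uncertain. Of 12 listed blood leukocyte genes 3 had enough counts to be tested, and Cd3e, Cd3g and Cd8a did not. Of these 3, 2 had a positive log2 difference, and 1, Cd4, was called lower. Cd4, a coreceptor of helper T cells, was at 9.10 ± 0.64 CPM in R47H_control against 11.1 ± 0.86 CPM in WT_control (adjusted p = 0.0204, and 0.0558 without R47H_control replicate 2). It was also lost in the 12-library fit with the rRNA-like share (0.111) and with the striatal list, which itself differs between the groups, as a covariate (0.683).

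Among 44 cytosolic ribosomal protein genes, 5 were called higher (Rps15, Rps14, Rps21, Rps27 and Rpl10) and none lower, with a list median of 0.06, beside 2.69% called higher over all genes. Rps15 was at 90.0 to 99.1 CPM against 104 to 112 CPM (log2 difference 0.17, SE 0.03, adjusted p = 0.0013), Rps21 at 69.4 to 77.7 CPM against 81.2 to 89.2 CPM (log2 difference 0.16, SE 0.04, adjusted p = 0.0126) and Rps14 at 103 to 111 CPM against 109 to 127 CPM (log2 difference 0.16, SE 0.04, adjusted p = 0.0114). Rps27 had 0.17 (SE 0.04, adjusted p = 0.0198, and 0.05 without R47H_control replicate 6). Reads of these genes can be shared with processed pseudogenes, of which Rps15-ps2 was itself called (17.7 ± 1.05 against 21.5 ± 1.49 CPM, adjusted p = 0.000675). Scaled by library totals, none of the 5 was called higher, and the list median was -0.00. With the rRNA-like share in the fit, Rps15 and Rpl10 were called. Of 32 respiratory chain genes 2 were called, near the 5.74% over all genes, both higher: Sdhc of complex II (log2 difference 0.14, SE 0.03, adjusted p = 0.00497) and Ndufb8 of complex I, the latter lost on 7 of 12 omissions. Neither passed with library totals as the scaling (adjusted p = 0.184 and 0.474) or with the rRNA-like share (0.0886 and 0.0819). Sdhc lies at 170 to 180 Mb of chromosome 1, where 32 of 122 tested genes were called, a region described further on.

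Single calls, a count near what 5.74% of all genes gives in lists of this size, stood in 7 more lists: Hsd17b7 lower among 22 cholesterol synthesis genes, Sox6 higher among 12 oligodendrocyte precursor genes, Rgs5 lower among 13 mural cell genes, Zic1 higher among 16 thalamus genes, Ciart lower among 18 clock genes, Cryab lower among 14 heat shock genes and Treml2 among 6 tested neighbours of Trem2. Each of these 7 was lost on leaving out single libraries, in 6 to 9 of 12 omissions, and all but Rgs5 with the rRNA-like share in the fit (adjusted p = 0.0544 to 0.358). Cryab, a small heat shock protein of glia, was at 39.4 to 47.7 CPM against 21.4 to 39.0 CPM, with R47H_control replicates 1, 5 and 6 near 22 CPM and the other 3 at 35.3 to 39.0 CPM. No gene passed among astrocyte (18), mature oligodendrocyte (18), endothelial (18), meningeal fibroblast (18), choroid plexus and ependyma (14), hippocampus (14), glucocorticoid response (19), border macrophage (11), red blood cell (6) and inflammatory cytokine (11) lists. In these lists edgeR gave between 0 and 5 genes at an unadjusted p below 0.05, and DESeq2 called 1 astrocyte and 1 endothelial gene. Choroid plexus genes had a median log2 difference of 0.52 with 13 of 14 positive, and their summed level ran from 211 to 726 CPM in WT_control and from 227 to 1063 CPM in R47H_control. Meningeal genes had a median of 0.16 with 16 of 18 positive. The plot of list members sets these medians side by side.

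**Figure D4:**
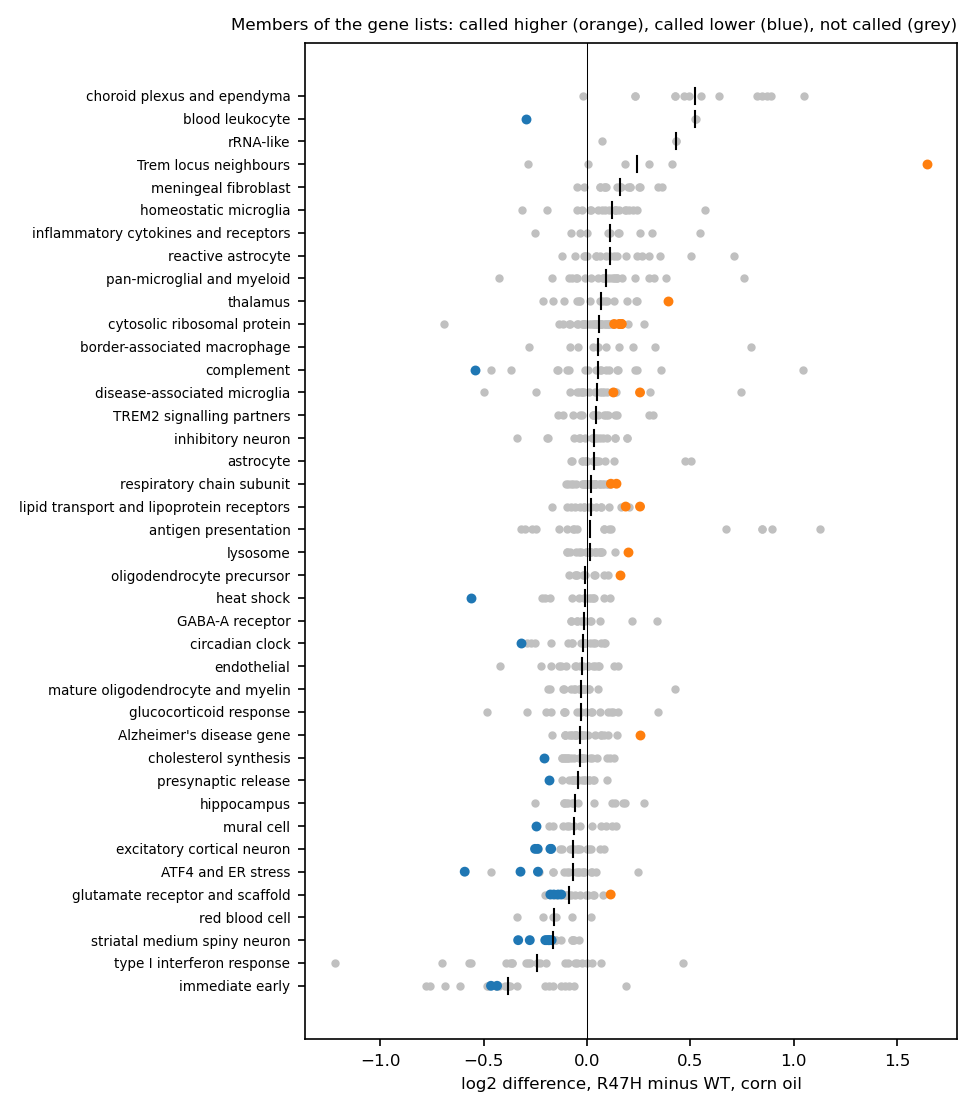
Log2 difference of R47H from WT in corn oil mice (x axis) for every tested member of 40 gene lists (rows, ordered by median), each point 1 gene, orange if called higher, blue if called lower, grey if not called, with a black bar at the list median. Immediate early genes have the lowest median, -0.38, and striatal genes hold 7 blue points and none to the right of 0.

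Called genes were unevenly spread over the genome. Chromosome 17, which carries Trem2, held 129 called genes of 935 tested (13.8%) and 24 of the 102 with at least a 2-fold difference, against 5.34% called on all other chromosomes together. A called gene had a called neighbour, the next tested gene on either side, in 21.6% of cases, and a gene that was not called in 10.2%. Both directions occurred within the same window of 10 Mb, for instance 7 higher and 10 lower at 0 to 10 Mb of chromosome 17.

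That window had the highest share, with 17 of 50 tested genes called (34%), and 15 of them were called in the same direction in tamoxifen-treated mice. Tmem181b-ps, a transcribed pseudogene, was at 73.0 to 126 CPM in WT_control and at 29.3 to 72.6 CPM in R47H_control (log2 difference -1.53, SE 0.25, adjusted p = 0.000748). The WT libraries 1, 3, 4 and 5 lay between 123 and 126 CPM, while WT_control replicates 2 and 6 were at 73.0 and 91.5 CPM. The R47H libraries 2 to 6 lay between 29.3 and 35.1 CPM, while R47H_control replicate 1 was at 72.6 CPM. The same libraries stood between the groups in Tagap1, a relative of the GTPase-activating protein TAGAP of T cells, with WT_control replicates 2 and 6 at 10.6 and 9.83 CPM, the other WT libraries at 6.33 to 7.28, R47H_control replicate 1 at 10.7 and the other R47H libraries at 15.0 to 16.2 CPM (log2 difference 0.90, SE 0.12, adjusted p = 5.29e-05). Rsph3a, a radial spoke protein of cilia, rose as well (2.19 ± 0.61 against 3.85 ± 0.32 CPM, adjusted p = 0.000549). Over the 17 called genes, the WT library nearest to the R47H mean was replicate 2 in 7 and replicate 6 in 7, and the R47H library nearest to the WT mean was replicate 1 in 11. Over all 1129 called genes these libraries were nearest in 14.1%, 16.7% and 16.8%. The same 3 libraries were the nearest ones at 20 to 30 Mb, the window of Hmga1, where 39 genes were called and WT_control replicates 2 and 6 were nearest in 12 and 13 and R47H_control replicate 1 in 23.

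On chromosome 1 at 170 to 180 Mb, 32 of 122 genes were called (26.2%), 11 higher and 21 lower, 20 of them in both treatments. Beside RP23-474A1.1 and Gm16432 the lowest p-values were those of Fmn2, a formin that nucleates actin (98.2 ± 2.25 against 86.3 ± 3.66 CPM, adjusted p = 0.00024), and Zbtb18, a transcriptional repressor of neuronal development (270.1 ± 11.2 against 231.4 ± 12.2 CPM, adjusted p = 0.00024). The R47H library nearest to the WT mean was replicate 1 in 13, replicate 5 in 8 and replicate 4 in 7 of the 32. At 50 to 60 Mb of chromosome 6, 14 of 61 genes were called (23%), 11 higher and 3 lower, 10 in both treatments. The 3 lower ones, which had the lowest p-values, were Osbpl3, an oxysterol-binding protein (46.2 ± 3.39 against 35.8 ± 3.32 CPM, adjusted p = 0.000211), Wipf3, an actin regulator (132 ± 4.17 against 113 ± 4.88 CPM, adjusted p = 0.00024), and Gars. Around Trem2 itself, at 40 to 50 Mb of chromosome 17, 22 of 109 genes were called (20.2%), 12 higher and 10 lower, and 18 in both treatments. Mut, the mitochondrial methylmalonyl-CoA mutase, was lower at 37.4 ± 3.23 against 47.9 ± 2.37 CPM (log2 difference -0.36, adjusted p = 0.000102). Gpr115 was higher at 1.63 ± 0.45 against 0.631 ± 0.07 CPM (log2 difference 1.36, adjusted p = 7.83e-05), and Tjap1, a tight junction protein, was lower at 11.96 ± 0.83 against 16.6 ± 2.09 CPM (log2 difference -0.47, adjusted p = 0.000169).

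On chromosome 16 at 40 to 60 Mb, 15 genes were called in 2 adjoining windows (8 of 43 and 7 of 37). Cd47, the signal that tells macrophages not to engulf a cell, was higher in all 6 R47H libraries, 203, 224 and 238 CPM against 167, 173 and 188 CPM (log2 difference 0.33, SE 0.05, adjusted p = 0.000275). Ccdc80, an extracellular matrix protein, was at 5.69 to 7.45 CPM against 7.56 to 12.8 CPM (log2 difference 0.67, SE 0.10, adjusted p = 0.00024), and Abi3bp, another matrix protein, at 17.9 to 22.7 CPM against 23.3 to 32.2 CPM (log2 difference 0.51, SE 0.10, adjusted p = 0.00228). Ift57, of the intraflagellar transport machinery, was also higher (log2 difference 0.24, SE 0.04), and Slc35a5, a sugar transporter of the Golgi, and Pcnp were lower (-0.27, SE 0.05, and -0.24, SE 0.05). Tmem45a was higher (log2 difference 0.95, SE 0.19, adjusted p = 0.00242). All of these except Tmem45a were called in tamoxifen-treated mice.

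At 0 to 10 Mb of chromosome 14, 9 of 28 genes were called (32.1%) in corn oil mice, and none of the 28 was called in tamoxifen-treated mice, though all 9 had the same sign there. Of 82 windows with 5 or more genes called in corn oil mice, 7 had none called in both treatments, and 3, all on chromosome 14, had none called in tamoxifen-treated mice. The median absolute log2 difference of the 9 was 0.89, and in tamoxifen-treated mice their median in the same direction was 0.20. The 9 were chosen by their corn oil values, so these 2 medians do not compare the treatments on equal terms. D830030K20Rik had 10 counts in WT_control and 72 in R47H_control, at 0 to 0.135 CPM against 0.194 to 0.445 CPM (log2 difference 2.97, SE 0.54, adjusted p = 0.00101, against 0.80, SE 0.44, in tamoxifen-treated mice). Gm10406 was at 0.895 to 1.46 CPM against 0.185 to 0.72 CPM (log2 difference -1.50, SE 0.33, adjusted p = 0.00583), and Gm8281 at 0.0845 to 0.323 CPM against 0.388 to 0.552 CPM (log2 difference 1.28, SE 0.31, adjusted p = 0.0138, and 0.11 with the rRNA-like share). These are gene models of a family with many near-identical copies, so their reads are uncertain. Pdhb, a subunit of pyruvate dehydrogenase, was also called (log2 difference 0.16, SE 0.04, adjusted p = 0.0193, lost without WT_control replicate 2 or 6 at 0.0562 and 0.0558 and with the rRNA-like share at 0.0911). For 4 of the 9 the difference between treatments had an unadjusted p below 0.05, and none passed adjustment over all genes.

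**Figure D5:**
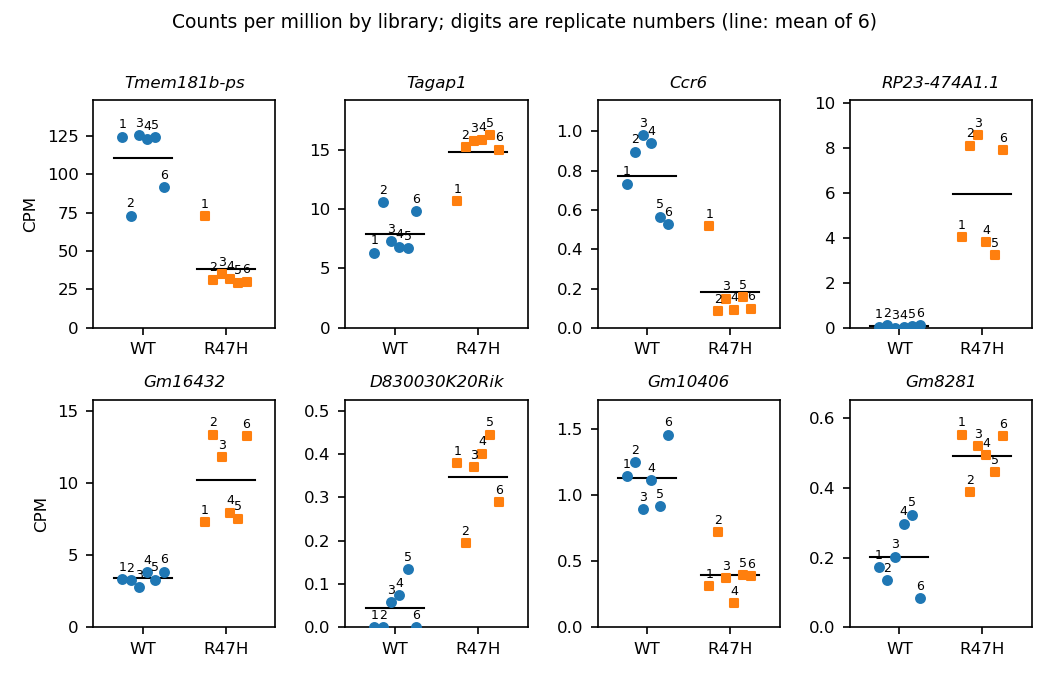
CPM by library for 8 genes of windows with a high share of calls, 6 WT (blue circles) and 6 R47H (orange squares) corn oil mice, with replicate numbers beside the points, the line the mean of the group, each axis starting at 0. WT replicates 2 and 6 and R47H replicate 1 lie between the groups in Tmem181b-ps and Tagap1 of chromosome 17, and R47H replicates 1, 4 and 5 form the lower level in RP23-474A1.1 and Gm16432 of chromosome 1.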

How the data were processed

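Cortical RNA of 24 mice was sequenced from poly-A enriched TruSeq v2 libraries, a kit that does not mark strand, per the labels' protocols. Reads were aligned to mm10 with STAR 2.5.2b and counted with featureCounts 1.5.1, per the submitters' processing notes. The authors deposited raw counts per gene. Annotation release and counting options were not given in the sources used here. Total counts ran from 31025034 to 43961714 in the 12 corn oil libraries.

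The 24 libraries were fitted together with edgeR 4.0.16 in R 4.3.3 (TMM scaling, filterByExpr with a minimum count of 10, robust quasi-likelihood F-test, Benjamini-Hochberg adjustment over 19678 genes), and adjusted p-values in the text are from this test unless another is named. A gene was called at an adjusted p below 0.05. Standard errors are the absolute log2 difference divided by the square root of F. CPM use TMM-scaled totals. Alternatives used DESeq2 1.42.0 and limma 3.58.1, other scalings, filters, covariates and omitted libraries. The code was tested on simulated counts. Exact permutation tests ran over 924 assignments.

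Named genes are Trem2, the called genes with the largest differences (10 in each direction, true symbols only, without clone names such as RP23), the 10 lowest p-values, up to 4 called members of each list, a panel of glial genes, the widest gaps between groups, and genes from windows of 10 Mb, a set narrowed after the counts were seen. H2-Aa and its relatives, Cd44, Cyba, Pf4, Irf7, H2-T23, Slc7a11, Dlg4, Lpl and Ctsb were picked with their values already seen. The members and gene lists were chosen with earlier results of these data known. Of the 43346 gene IDs, 98.0% were found in GENCODE vM21, and 80 of 114 named genes had a RefSeq promoter window. Y-linked genes were above Xist in 3 libraries of each group. Counting intervals cover counting error only. Some members of the lists are not reported here by name.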

Additional observations from a re-analysis of the deposited data

Results flagged for a closer look

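Libraries far from the other 5 of their group were sought with Dixon's test in 230 groups of 6 values of the named genes, and 18 passed its 95% critical value, where chance alone passes about 1 group in 20. On chromosome 17, R47H_control replicate 1 was the highest of its group in Prss41 (1.93 CPM), Ccr6 (0.518 CPM), Tagap (2.52 CPM) and Tmem181b-ps (72.6 CPM) and the lowest in Tagap1 (10.7 CPM), each time on the side of the WT libraries. The same library was the highest in Pcp4 (192 CPM) and Rps15-ps2 (24.4 CPM). WT_control replicate 6 was the lowest in Mut (43.3 CPM) and the highest in Rgs9 (94.9 CPM) and H2-T23 (6.49 CPM). WT_control replicate 4 was the lowest in Rps15 (90.0 CPM) and Rps21 (69.4 CPM). The others were WT_control replicate 3 in Klk1b22 (0.0289 CPM, the only WT library with a count), WT_control replicate 2 in Nlrc4 (0.0816 CPM, lowest), R47H_control replicate 2 in C4a (0.803 CPM, lowest), R47H_control replicate 3 in Timp2 (268 CPM, lowest), R47H_control replicate 4 in Unc13a (380 CPM, highest) and R47H_control replicate 6 in Cyba (2.61 CPM, lowest).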

How the results depend on the processing

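The counts of genes called higher, called lower and called in both treatments were 191, 1142 and 270 with library totals as the scaling, 200, 251 and 279 when the fit included the rRNA-like share, 141, 121 and 99 with the striatal list as a covariate, 926, 1027 and 755 at an adjusted p below 0.1, and 249, 262 and 214 with a fold of at least 1.2. The 12 corn oil libraries with the rRNA-like share gave 126 higher and 135 lower, and 164 and 170 lay outside windows with 5 or more called genes. The cause was not tested, except that the striatal covariate is built from genes that differ between the groups and that the last count leaves genes out by construction. Leaving out single libraries gave 362 to 521 higher, 408 to 618 lower, 383 to 473 in both, 741 to 851 genes without overlap, 0 to 1 gene in the test between treatments and a difference in rRNA-like share of 3.545 to 5.258 points. The counts without overlap then compare 6 libraries with 5, which separate more easily than 6 and 6. They lie above the main count of 626 for that reason and do not test it. The Trem2 difference, 0.256 to 0.351 on such omissions, passed the threshold with limma-voom and sample weights (0.288), in the 12 corn oil libraries (0.304), at an adjusted p below 0.1 (0.302) and without WT_induced replicate 6 (0.301). Of 93 named genes that were called, 27 kept call and direction under every alternative run. Genes that changed sign were not called in the main fit. With the rRNA-like share they were Tyrobp (-0.031), Aif1 (-0.069), Csf1r (-0.057), Itgax (-0.133), H2-Aa (-0.275), H2-Ab1 (-0.613), H2-Eb1 (-0.462) and Cd74 (-0.500). Csf1r also did with library totals (-0.045), the striatal covariate (-0.022) and without R47H_control replicate 4 (-0.003; up to 0.04 on other omissions), and H2-Ab1 with the striatal covariate (-0.031). Leaving out WT_induced replicate 6 and removing the rRNA-like genes from the totals were chosen after seeing the data, as was the 12-library fit with that share. Genes below 1 CPM were called at larger differences than deeper ones, so small differences in them were not detectable at this depth. No paired analysis was possible because the replicate numbers were given in accession order and the labels carry no number that links mice of different groups.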
